A study of Mus musculus with 31 samples.

Results

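The Hox genes of NIH-3T3 cells were described from 1 ATAC-seq library. Hox genes encode homeodomain transcription factors that lie in 4 clusters, HoxA to HoxD, and genes with the same number in different clusters are paralogues. All genes of a cluster are transcribed in the same direction. Low numbers lie at the 3' end and act anteriorly in the embryo, whereas high numbers lie at the 5' end and act posteriorly, so that the set of active Hox genes marks the body position from which a cell came. Fibroblasts are known to keep such a positional record in culture, and inactive Hox genes are commonly held by Polycomb complexes. The 38 Hox genes analysed here were chosen by name from the GENCODE annotation, among 21938 protein-coding genes of chromosomes 1 to 19, X and Y. Peaks in or within 100 kb of the 4 clusters, 67 of 63456 in the library, were described with them.

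NIH-3T3 is an established mouse embryonic fibroblast line, and the parental cells used here carry no transgene. In ATAC-seq, accessible DNA is cut and tagged by the transposase Tn5, here in nuclei of 50000 cells with 0.5 µM Tn5 and 12 cycles of PCR. The other 30 samples of the series, NIH-3T3 lines that overexpress 1 of 13 HA-tagged transcription factors under doxycycline control and lines with the rtTA3G activator alone, were not analysed here. Whether the parental cells received doxycycline is unclear, since the labels name none and the methods give it for NIH-3T3 cells in general. There is no replicate of this library, so no value has a replicate error and no comparison between samples was made.

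The deposited values are peaks, not reads. For each peak, the number of fragments over its summit was solved from the deposited fold enrichment and −log10 p, and it is given with an exact Poisson 95% interval that covers counting error only. The median over all peaks was 29 fragments and the lowest was 10, with 2.81 fragments as the lowest expected background among solved peaks. A gene is called open when a peak lay within 1 kb of any of its annotated transcription start sites (TSSs), and closed otherwise. A closed gene is one without a called peak at this depth. The peak list does not measure transcription. Of 11 fibroblast markers, 10 were open, among them Col1a1 with 59 fragments, Col1a2 with 56, Col3a1 with 55 and Dcn with 18, and Lum was closed. None of 5 pluripotency markers (Nanog, Pou5f1, Dppa4, Esrrb and Zfp42) and none of 4 neuron markers (Rbfox3, Snap25, Syt1 and Tubb3) was open, against 2 of 6 epithelial markers (Krt8 with 22 fragments and Krt14 with 47, but not Cdh1, Cldn4, Epcam or Krt18) and 1 of 5 blood markers (Spi1 with 18, with Cd3e, Itgam and Ptprc among the closed).

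The accessible DNA of the clusters is shown by a few sequences: the open promoters of the anterior genes Hoxa2 and Hoxa4, the promoter of Hoxb9, and the highest peaks of HoxB and of HoxC away from Hox TSSs. Each is the 121 bp around the summit on the plus strand of mm10, clear of annotated exons. Capitals mark matches, on either strand, to TGATNNAT (PBX/HOX), CCAAT (bound by NF-Y), GGGCGG (SP/KLF) or TGACTCA (AP-1).
Hoxa2 promoter, chr6:52164901-52165021, PBX/HOX and CCAAT box: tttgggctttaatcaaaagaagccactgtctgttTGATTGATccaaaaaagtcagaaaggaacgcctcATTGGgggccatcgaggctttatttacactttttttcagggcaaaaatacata
Hoxa4 promoter, chr6:52191920-52192040, SP/KLF, CCAAT box and PBX/HOX: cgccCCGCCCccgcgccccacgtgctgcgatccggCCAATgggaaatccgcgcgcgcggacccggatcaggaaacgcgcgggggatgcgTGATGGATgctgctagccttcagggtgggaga
Hoxb9 promoter, chr11:96271095-96271215, SP/KLF: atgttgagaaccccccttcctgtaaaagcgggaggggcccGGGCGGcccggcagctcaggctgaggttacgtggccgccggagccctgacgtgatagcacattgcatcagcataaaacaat
HoxB, intron of the noncoding Gm53, chr11:96260393-96260513, AP-1: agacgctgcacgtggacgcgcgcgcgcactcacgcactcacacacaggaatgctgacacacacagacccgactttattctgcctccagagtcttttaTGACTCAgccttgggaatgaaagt
HoxC, intron, chr15:103002259-103002379, no match: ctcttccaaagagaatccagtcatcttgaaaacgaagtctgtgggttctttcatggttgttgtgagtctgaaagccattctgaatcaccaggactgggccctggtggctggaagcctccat

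Of the 38 Hox genes, 16 were open (42.1%) and 22 were closed, against 53.7% of all protein-coding genes by the same rule. The open genes were spread over all 4 clusters and were not the whole of any paralogue group. HoxA had 6 of 10 genes open (Hoxa2, Hoxa3, Hoxa4, Hoxa5, Hoxa7 and Hoxa10), and Hoxa6, Hoxa9, Hoxa11 and Hoxa13 were closed. HoxB had 2 of 10 open, Hoxb6 and Hoxb9. HoxC had 4 of 9 open (Hoxc5, Hoxc6, Hoxc10 and Hoxc13), and HoxD also had 4 of 9 open (Hoxd3, Hoxd4, Hoxd8 and Hoxd9).

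**Figure D1:**
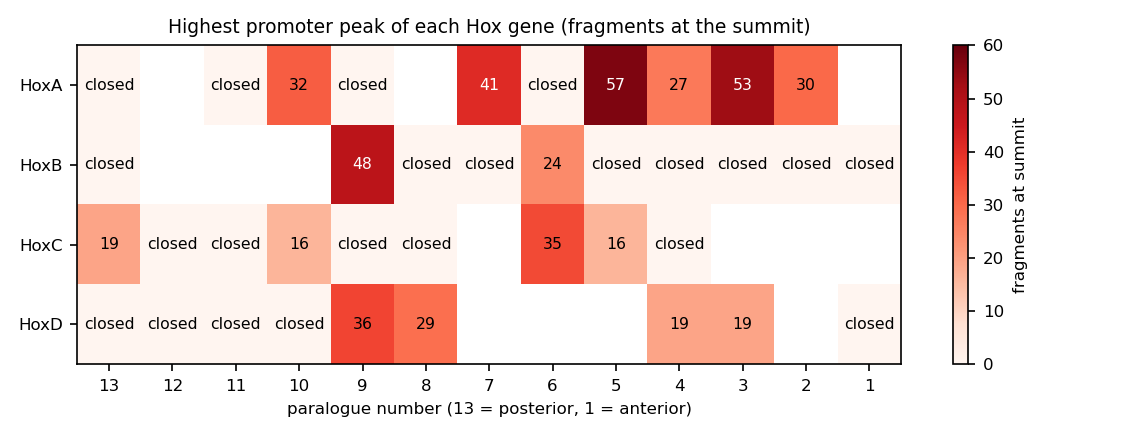
Each cell is 1 Hox gene, by cluster (rows) and paralogue number (columns), and the number and colour give the fragments at the summit of its highest promoter peak. Cells marked closed have no peak within 1 kb of a TSS, and blank cells hold none of the 38 genes; HoxA has 6 open genes and HoxB 2.

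By position along the body axis, 5 of 11 anterior genes (paralogues 1 to 4) were open, 6 of 11 middle genes (5 to 8) and 5 of 16 posterior genes (9 to 13). Among the 38 genes analysed, which are not every annotated Hox gene, none of paralogue groups 1, 11 or 12 was open. These groups had 2, 3 and 2 genes among the 38. In group 13, which acts at the tail end and in the distal limb, Hoxc13 was open and Hoxa13, Hoxb13 and Hoxd13 were closed. In group 9, Hoxb9 and Hoxd9 were open and Hoxa9 and Hoxc9 were closed. In group 10, Hoxa10 and Hoxc10 were open and Hoxd10 was closed. Open and closed genes thus stood side by side within a paralogue group, and among the 38 genes no cluster had an unbroken run of open genes from its 3' end to a single boundary: Hoxa6 was closed between open Hoxa5 and Hoxa7, and Hoxa9 between open Hoxa7 and Hoxa10.

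GENCODE includes long and read-through transcripts, so a peak can count for a gene whose coding start is far away. Of the 16 open genes, 10 had a peak within 1 kb of a coding TSS that lies within 2 kb of its start codon: Hoxa2, Hoxa4, Hoxa5, Hoxa7, Hoxa10, Hoxb9, Hoxc10, Hoxc13, Hoxd8 and Hoxd9. This was 10 of the 36 Hox genes that have such a TSS, and the same rule, which was chosen after the data were seen, called 46.7% of all protein-coding genes. The other 6, Hoxa3, Hoxb6, Hoxc5, Hoxc6, Hoxd3 and Hoxd4, were open at other annotated starts alone. The peak of Hoxa10 lay at a coding start other than the one nearest to its start codon, which had no peak within 1 kb. Hoxa3 was counted from a start 40466 bp before its start codon, and Hoxd3 from one 32085 bp before. Hoxd3 and Hoxd4 shared 1 peak, and Hoxc5 and Hoxc10 shared another, so that the 16 genes had 14 distinct highest peaks. By the stricter rule HoxA had 5 open genes, HoxB 1, HoxC 2 and HoxD 2. By body position, it left 2 of 11 anterior, 3 of 11 middle and 5 of 16 posterior genes open. These totals include Hoxa3 and Hoxc9, which have no such TSS. The higher counts of anterior and middle genes by the first rule thus rested on starts far from the start codon.

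Within HoxA, the highest promoter peak was at Hoxa5, a middle gene known for its role in the lung and the cervical skeleton. It lay under 57 fragments (95% interval 43.2 to 73.9), with a fold enrichment of 9.47 over the local background and a width of 1009 bp (chr6:52203705-52204713). The peak of Hoxa3, at its remote start, had 53 fragments (39.7 to 69.3), and 2 more peaks at its other starts had 38 and 29. Hoxa7 had 41 fragments (29.4 to 55.6) at a start 4615 bp before its start codon, and a second peak of 21 closer to the codon. The summit counts of Hoxa5, Hoxa3 and Hoxa7 were not separated from each other by their intervals.

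The posterior gene Hoxa10 had 32 fragments (21.9 to 45.2). Hoxa2, which patterns the hindbrain and the second branchial arch, had 30 fragments (20.2 to 42.8), and its peak holds the PBX/HOX and CCAAT matches printed above. Hoxa4 had 27 fragments (17.8 to 39.3). Over all 13 peaks inside HoxA, the summits ran from 14 to 57 fragments.

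In HoxB, Hoxb9 had a peak of 48 fragments (35.4 to 63.6) upstream of its TSS and a second, 1169 bp wide, of 39 fragments. Hoxb6 had 24 fragments (15.4 to 35.7) at a start 6701 bp before its start codon, and its coding start close to the codon lay 4203 bp from a peak. The 8 closed genes of the cluster included all of Hoxb1 to Hoxb5.

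In HoxC, the 3 promoter peaks of Hoxc6 had 35, 32 and 20 fragments, and its coding start by the start codon lay 3665 bp from the nearest peak. Hoxc13, known from hair and nail, had 19 fragments (11.4 to 29.7) in a peak 189 bp outside the gene, just beyond the cluster as delimited here. The peak shared by Hoxc10 and Hoxc5 had 16 fragments (9.15 to 26) and was the lowest of the Hox promoter peaks. It lay 138 bp from the coding start of Hoxc10.

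In HoxD, Hoxd9 had 36 fragments (25.2 to 49.8) in the widest Hox promoter peak, 1216 bp. Hoxd8 had 29 fragments (19.4 to 41.7) and a second peak of 24. The peak shared by Hoxd3 and Hoxd4 had 19 fragments (11.4 to 29.7). The central genes Hoxd8 and Hoxd9 were thus the only HoxD genes with a peak at a coding start by their start codon.

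**Figure D2:**
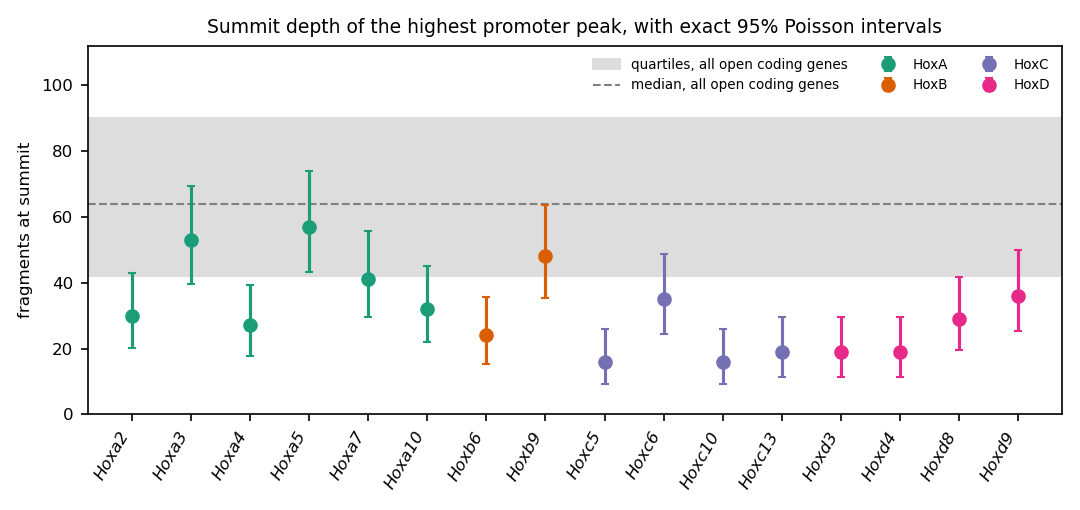
Points are the fragments at the summit of the highest promoter peak of each open Hox gene (vertical axis, linear), coloured by cluster, and bars are exact 95% Poisson intervals for counting error in this single library. The dashed line and grey band are the median (64.0) and quartiles (42 and 90) over all open protein-coding genes; all 16 points lie below the line, and the bars of Hoxa3 and Hoxa5 reach over it.

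Hox promoter peaks were low and narrow beside those of other genes. The median of the highest peak of the 16 open Hox genes was 29.5 fragments, against 64.0 (quartiles 42 and 90) for 11788 open protein-coding genes. All 16 were below 64.0, and the upper bound of the interval was below it in 14. The median fold enrichment was 4.95 against 9.83, and the median width was 411.5 bp against 800 bp. The expected background under the summits was similar in both sets, with medians of 4.87 and 5.54 fragments. Hoxa5 stood at percentile 55.2 among all promoter peaks of coding genes and Hoxc10 at 6.42.

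Closed Hox genes were at varied distances from the nearest peak. Of the 22, 6 had a peak within 5 kb of a TSS, 7 had the nearest at 5 to 10 kb and 9 at more than 10 kb. Hoxb8 (1440 bp) and Hoxb7 (1932 bp) lay closest to a peak, followed by Hoxa6 (2683 bp) and Hoxc8 (2938 bp). Hoxb2 (53334 bp), Hoxb13 (45939 bp) and Hoxb1 (38707 bp) lay farthest. The median was 8985 bp, against 23094 bp for all closed protein-coding genes.

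Inside the clusters, delimited by the outermost ends of the 38 genes, there were 37 peaks in 485.0 kb. This was 7.63 peaks per 100 kb, compared with 3.75 in the 100 kb on either side of the clusters and 2.40 in the genome. Peaks covered 3.28% of cluster bases, 1.42% of flanking bases and 1.01% of the genome. HoxA was the densest with 13.2 peaks per 100 kb, followed by HoxC with 7.78, HoxB with 5.75 and HoxD with 5.16. The clusters hold many TSSs, whose part in the density was not tested, and 28 of the 37 peaks lay within 1 kb of a TSS of some gene, against 6 of 30 in the flanks.

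**Figure D3:**
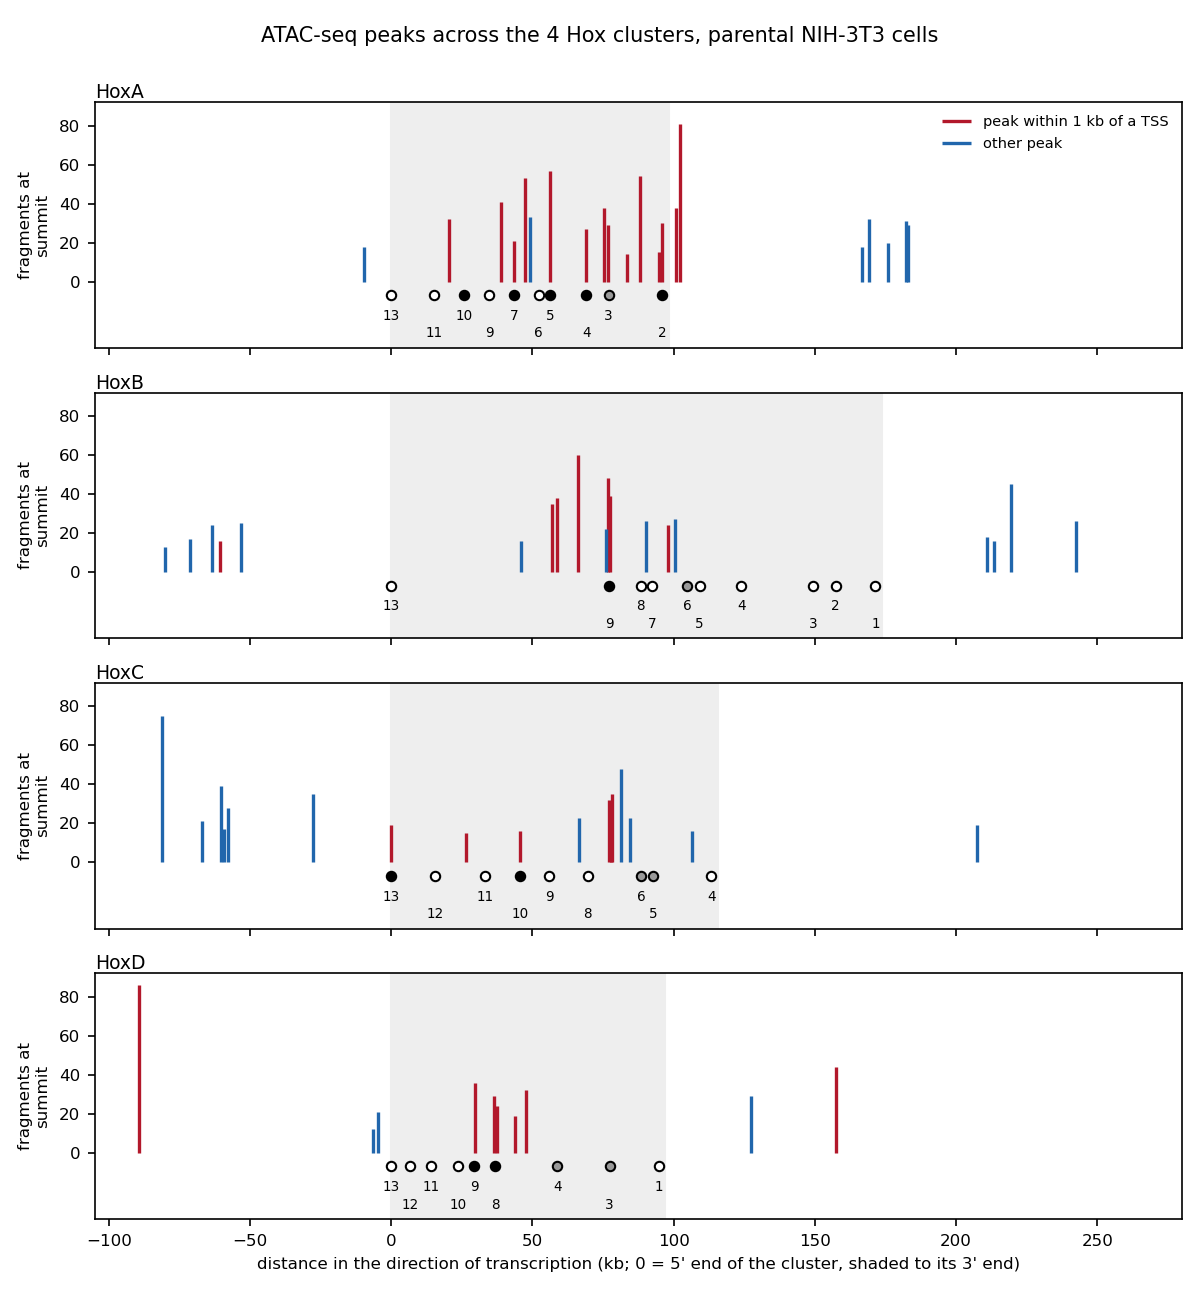
Vertical lines are ATAC-seq peaks, with the fragments at the summit as height, along each cluster (shaded) and 100 kb on either side, in the direction of transcription. Circles are Hox genes at the start nearest to their start codon, labelled by paralogue number. They are filled black when open at a coding start within 2 kb of a start codon, grey when open at other starts alone, and white when closed. Hoxa10 is black for a peak at another coding start than the one drawn. HoxB has no peak from the drawn start of Hoxb6 through Hoxb1.

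The peaks were clumped, and long stretches held none. The longest that reached into a cluster, 110.0 kb (chr11:96294969-96404964) of which 73.3 kb lay inside HoxB and the rest beyond its 3' end, held every TSS of Hoxb1, Hoxb2, Hoxb3, Hoxb4 and Hoxb5, and the start of Hoxb6 next to its start codon. Of the 63435 gaps between neighbouring peaks in the genome, 5.65% were at least as long, and 231 of these 3581 gaps held at least 5 protein-coding genes. A second stretch of 99.09 kb surrounded Hoxb13, with 45.9 kb of it inside the cluster. In HoxD, 79.29 kb around Hoxd1 (48.9 kb inside) and 33.75 kb with Hoxd10, Hoxd11, Hoxd12 and Hoxd13 (29.2 kb inside) held no peak, so that all its peaks lay between these stretches. In HoxA, 29.71 kb with Hoxa11 and Hoxa13 (20.1 kb inside) held none. Nor did 18.1 kb with Hoxa9 and the start of Hoxa10 nearest to its start codon. In HoxC, the longest ran for 100.9 kb from inside the cluster beyond its 3' end (9.29 kb inside). It held the start of Hoxc4 nearest to its start codon. Another of 26.48 kb held Hoxc12 and the TSS of Hoxc13, which counts as open by the peak 189 bp away. Of all gaps in the genome, 6.27%, 6.42% and 8.46% were at least as long as those of 100.9, 99.09 and 79.29 kb. For those of 33.75, 29.71, 26.48 and 18.1 kb the shares were 22.6%, 25.7%, 28.5% and 38.8%, so gaps of these lengths were common.

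Higher peaks lay in the flanks, but the highest peak inside the clusters as delimited here was not at a Hox gene. It had 60 fragments (45.8 to 77.2) and a fold enrichment of 9.30 and lay in an intron of Gm53, a long noncoding RNA gene between Hoxb13 and Hoxb9, within 1 kb of an annotated start. Further peaks of Gm53 had 38 and 35 fragments. In HoxA, a peak of 54 fragments (40.6 to 70.5) overlapped an exon of the long Hoxa3 model and the start of the antisense transcript Gm15050. In HoxC, the highest peak had 48 fragments (35.4 to 63.6) and lay in an intron shared by the Hoxc6 and Hoxc5 models, and in HoxD the start of the antisense gene Hoxd3os1 had 32 fragments.

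Of the 37 peaks, 9 lay farther than 1 kb from any TSS, with 6 in introns, 2 between genes and 1 in an exon. They had a median of 23.0 fragments, against 25 for all 47192 such peaks of the library. HoxB and HoxC had 4 each and HoxA 1 of 33 fragments, while HoxD had none. In the flanks, 24 of 30 peaks were of this kind, and 22 of them lay between genes. The highest flanking peak of this kind had 75 fragments and lay beyond the 5' end of HoxC (chr15:102839598-102840176).

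Of 31 genes inside the clusters that are neither protein-coding nor microRNAs, 8 were open (25.8%), against 12.0% of 31273 such genes of the annotation, pseudogenes included. The open ones were Hoxaas2, Gm15050, Gm29430, Gm53, Hotair, Gm27443, Gm28793 and Hoxd3os1. Hotair, a long noncoding RNA between Hoxc12 and Hoxc11 known from work on Polycomb, had a peak of 15 fragments (8.40 to 24.7) that also counts for Gm27443. The antisense genes Hoxb3os, Hoxb5os and Hoxa11os were among the closed genes. Several of these genes overlap Hox genes or share a start region with them, so a peak cannot be given to 1 of them.

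None of the 7 microRNA genes in the clusters had a peak within 1 kb of its annotated 5' end, which is the hairpin and not the start of the primary transcript, against 12.1% of 2202 microRNA genes. They are shown because the mature miRNAs are position-specific products of the clusters and are known to target Hox transcripts. The sequences are RefSeq entries, with the seed (bases 2 to 8) in capitals. The members of each family share a seed:
miR-10a-5p: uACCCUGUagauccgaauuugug
miR-10b-5p: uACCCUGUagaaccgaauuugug
miR-196a-5p: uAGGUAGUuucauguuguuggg
miR-196b-5p: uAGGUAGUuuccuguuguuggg
Mir196a-1 (HoxB) lay 4354 bp from the nearest peak, Mir196a-2 (HoxC) 6692 bp, Mir196b (HoxA) 8035 bp, Mir615 (HoxC) 9002 bp and Mir10b (HoxD) 9820 bp. Mir10a, in the peak-free stretch of HoxB beside Hoxb4, lay 22197 bp away, and the predicted Gm44463 lay 2370 bp away.

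Of the 7 protein-coding genes in the flanks, 3 were open. Lnpk and Mtx2, on opposite sides of HoxD, had 86 and 44 fragments, and Ttll6, on the 5' side of HoxB, had 16. Evx1 and Evx2, homeobox genes next to the 13th paralogues of HoxA and HoxD, were closed, as were Calcoco2 and Skap1. A list of 21 neighbours over longer distances, which repeats these flanking genes except Calcoco2, had 17 open (81.0%), with a median of 86.0 fragments. Atp5g2, Atp5g3, Calcoco1 and Cbx1 had 88, 43, 110 and 69, and Nfe2 was closed.

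Open and closed Hox genes overlapped in base composition, taken at the start nearest to the start codon. Hoxa10, Hoxb6, Hoxc5, Hoxc6, Hoxd3 and Hoxd4 had no peak within 1 kb of that start, so their values are not from an open start. In the 1 kb around the start nearest to the start codon, the median GC content was 59.1% in open and 56.6% in closed Hox genes, and the ratio of observed to expected CpG was 0.713 and 0.703. Over all protein-coding genes, open and closed genes were far apart on this measure, at 0.699 and 0.238. Of the Hox genes, 24 were CpG-rich (GC of at least 50% and a ratio of at least 0.6), and 10 of these 24 were open (41.7%), against 82.7% of 8892 CpG-rich protein-coding genes. Of the 14 CpG-poor Hox genes 6 were open, against 34.3% of 12767. With the stricter rule of a coding start by the start codon, 9 of the 24 CpG-rich Hox genes were open (37.5%), against 80.4% of all such genes. Of the 6 open CpG-poor Hox genes, Hoxc10 alone was open by that rule. The share of all CpG-poor genes by that rule was not computed. Closed CpG-rich Hox genes included Hoxa13, Hoxd13, Hoxd11 and Hoxd1, which had GC contents of 76.3%, 72.4%, 70.3% and 68.4%. The median number of annotated TSSs was 2 per Hox gene and 3 per protein-coding gene. The part of this difference in the counts was not tested.

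**Figure D4:**
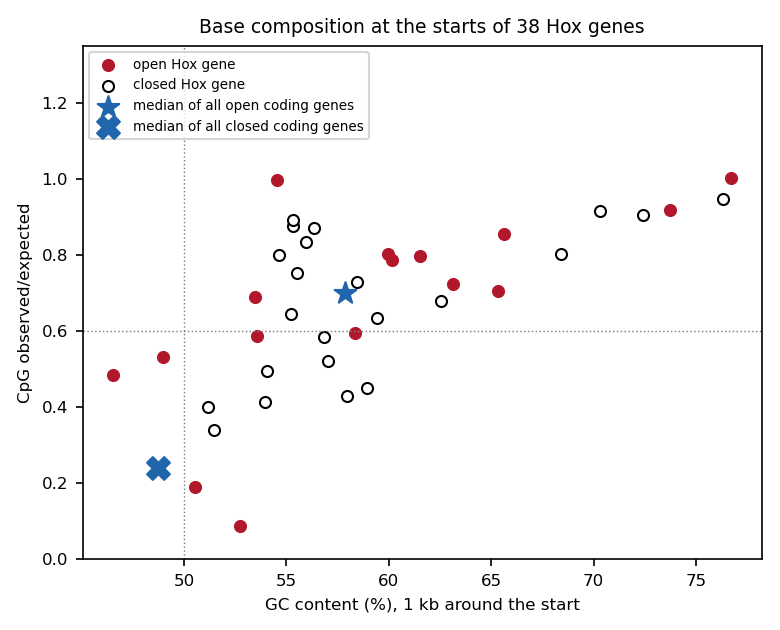
Each circle is 1 of the 38 Hox genes, placed by GC content (horizontal axis) and the ratio of observed to expected CpG (vertical axis). Both are from the 1 kb around the start nearest to its start codon, and circles are filled when the gene is open at any start. Dotted lines are the limits for CpG-rich genes, and the star and cross are the medians of all open and closed protein-coding genes; open and closed Hox genes overlap along both axes.

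Short motifs were counted on both strands in promoters (from 250 bases before to 50 bases after the start nearest to the start codon) and in 201-bp windows at peak summits. The motif of joint PBX and HOX binding, TGATNNAT, was in 10 of 38 Hox promoters (26.3%), against 7.97% of all coding promoters. It was in the promoters of 4 of 16 open genes (Hoxa2, Hoxa3, Hoxa7 and Hoxb9) and of 6 of 22 closed genes (Hoxb1, Hoxb2, Hoxb5, Hoxb7, Hoxc11 and Hoxd11). At the summits of the 21 distinct Hox promoter peaks it was found in 5, all of them in HoxA, against 3.21% of all coding promoter peaks. CCAAT was in the promoters of 11 of 16 open and 13 of 22 closed Hox genes, against 37.1% of all, whereas GGGCGG was in 6 of 16 and 10 of 22, against 42.0%. TATAAA was in 2 of 16 and 5 of 22, against 13.4%.

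The AP-1 motif TGACTCA, which is bound by FOS and JUN proteins, was in 36.5% of all summit windows farther than 1 kb from a TSS, in 8 of 24 such windows in the flanks (33.3%) and in 0 of 9 inside the clusters. Over all 37 peaks inside the clusters it was in 1, the Gm53 peak printed above. None of the 21 Hox promoter peaks had it at the summit, against 8.76% of all coding promoter peaks. The 12-letter CTCF consensus was in 0 of the 37 windows, against 4.43% of all windows far from a TSS and 1.62% of coding promoter peaks, whereas the CTCF core, a degenerate 10-letter motif that overlaps it and was chosen after the summit sequences had been read, was in 5 of 37 (13.5%), against 7.87% of windows far from a TSS and 7.97% of coding promoter peaks. These matches describe letters in fixed windows and do not show binding.

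Genes whose products act with or on Hox genes were mostly open. Of the TALE homeodomain partners of HOX proteins, 8 of 9 were open. Meis2 had 90 fragments, Pbx4 89, Meis1 77, Pbx3 75, Pknox1 74, Meis3 42 and Pknox2 20, and Pbx2 had its nearest peak at 3379 bp. Meis1, Meis2, Pbx3, Pbx4 and Pknox1 thus exceeded the 57 fragments of Hoxa5, and Meis3 and Pknox2 did not. Of the Polycomb group genes, which repress Hox genes, 26 of 27 were open (Aebp2, Bmi1 and Cbx2 with 85, 70 and 29 fragments, for example), and Cbx7 was closed. Of the Trithorax group and H3K27 demethylases, which oppose Polycomb, 12 of 13 were open (Ash1l, Ash2l, Dpy30 and Kdm6a with 39, 54, 79 and 26), and Kdm6b was closed. All 8 genes of chromatin architecture, which encode CTCF, cohesin subunits and regulators of cohesin, were open. Ctcf had 67 fragments, Rad21 94, Smc1a 87, Smc3 140, Stag1 104, Stag2 33, Nipbl 62 and Wapl 117. These are mostly genes that every cell uses, and their counts are to be read beside the 53.7% of all protein-coding genes.

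Lists of developmental genes had lower shares. Of 16 upstream regulators of the body axis, 7 were open. They included the retinoid receptor genes Rara (90 fragments), Rarg (72), Rxrb (50) and Rxra (17), with Egr2 (94) and Gdf11 (32). Aldh1a2, Cdx1, Cdx2 and Cdx4 were among the 9 closed genes, and so were the retinoid receptor genes Rarb and Rxrg. None of the 6 ParaHox genes (Gsx1, Gsx2, Pdx1, Cdx1, Cdx2 and Cdx4), the sister genes of the Hox clusters, was open. Of 31 transcription factors of limb and body position, 13 were open (41.9%), with a median of 73.0 fragments. They included Emx2, En1, Gli3 and Lhx9 with 43, 147, 73 and 58 fragments, and Alx1, Alx4 and Barx1 were among the closed genes. Of 69 other homeobox genes, 20 were open (29.0%), with a median of 45.0 fragments. Cux1, Dlx1, Dlx2 and Dlx4 had 29, 92, 61 and 25, and Barhl1, Barhl2, Bsx and Cux2 were closed. The Hox share of 42.1% thus lay close to that of the position factors, while the median Hox promoter peak of 29.5 fragments was below the medians of the axial (50.0), position (73.0) and other homeobox (45.0) lists.

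**Figure D5:**
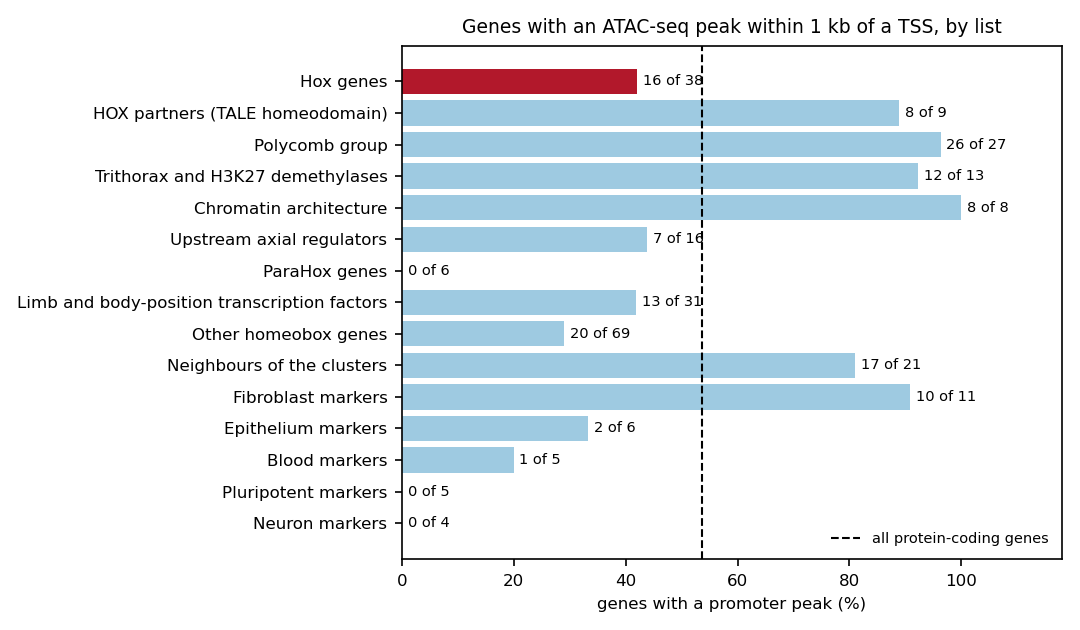
Bars give the share of genes in each list with a peak within 1 kb of a TSS (horizontal axis, percent, from 0), with the counts beside them. The dashed line is the share over all protein-coding genes (53.7%); the Hox genes (16 of 38) lie below it and the Polycomb, Trithorax, architecture and TALE lists above.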

How the data were processed

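One ATAC-seq library of parental NIH-3T3 cells was analysed. Read pairs were mapped to mm10 with STAR (2.5.3a) by the authors, Picard removed duplicates, and MACS2 (2.1.1.20160309) called the peaks, per the methods and the submitters' processing notes. The depth of the library in reads is not given in the peak list. The authors deposited a fold enrichment (a ratio), a −log10 p-value, a −log10 q-value and a score per peak. The score was not used for any result. Fragments at summits were obtained by solving for the pileup that gives the deposited fold enrichment and −log10 p together, and 99.997% came within 0.02 of a whole number. On 5000 simulated summits 99.98% were recovered. Intervals and shares cover 1 library, so no test between samples was made.

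TSSs come from GENCODE M21 on GRCm38, the same build. The members and gene lists were chosen with earlier results of these data known. Named were all 38 members, open noncoding genes of the clusters, nearest neighbours, up to 3 highest peaks per cluster, and per list up to 4 open and 4 closed genes in alphabetical order, or all genes of lists with 10 or fewer. Some items that this rule would name are not reported here. Rarb, Rarg, Rxra, Rxrb and Rxrg of the axial list were named after their values were seen. Alternatives varied the distance to the TSS, the TSSs counted, the q-value, the fold enrichment and the flank. RefSeq mature miRNAs (GRCm38) were matched by name. Software was SciPy 1.17.1, pysam 0.24.0, matplotlib 3.10.9, pandas 2.3.3 and NumPy 2.4.6 under Python 3.11.15.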

Additional observations from a re-analysis of the deposited data

How the results depend on the processing

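The number of open Hox genes was 16, and it stayed between 12 and 22 with peaks within 5 kb, coding TSSs alone, summits within 1 kb, or a q of 0.01 or 1e-05. It was 7 when the peak had to overlap the TSS, 8 at a fold enrichment of at least 5, and 10 at coding TSSs within 2 kb of the start codon, an alternative chosen after the data were seen. Under the same settings, the share of open protein-coding genes was 48.7% with overlap, 48.8% at the fold enrichment and 46.7% by the start codon. It was 62.8% within 5 kb, 52.2% for coding TSSs, 53.0% by summits and 52.0% at a q of 1e-05. Peaks across the clusters and flanks numbered 102 with 200 kb on either side and 32 at a fold enrichment of at least 5, and those inside 15 at that fold enrichment. The share of cluster bases in peaks was 2.93% at a q of 1e-05, 1.83% at the fold enrichment and 3.81% with windows of equal width at the summits. The cause of these shifts is the setting itself, which counts fewer or more peaks or starts. HoxA had the most open genes under each of these settings. Both with overlap and at the fold enrichment, HoxB had 1 open gene, HoxC 0 and HoxD 2. The median of 29.5 fragments ran up to 36.0 under its alternatives. No paired analysis was possible because 1 library was analysed and no test was made. Low peaks such as that of Hoxc10 are near the depth limit of the list.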
